A study of Canis lupus familiaris with 13 samples.

Results

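Transglutaminases join proteins by forming a bond between a glutamine and a lysine side chain. TGM2, the tissue transglutaminase, is found inside and outside cells in endothelium, macrophages, and stroma, where it crosslinks matrix proteins such as fibronectin, and its gene is known to respond to retinoids. TGM1, TGM3, and TGM5 crosslink the cornified envelope of keratinocytes, and F13A1 encodes the catalytic subunit of clotting factor XIII, which crosslinks fibrin and is made by macrophages and platelets. These 5 genes were followed in the canine tumor biopsies, out of 43427 genes in the deposited table. TGM2 was chosen by its early change in these data, where it had the smallest p-value of the 20118 genes tested. The 3 epidermal members and F13A1 were selected to be compared with it.

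RNA was measured in 13 libraries from 4 tumors in 3 companion dogs, each treated by injection into the tumor with IMAX, a nanoparticle of a polyethyleneimine-lithocholic acid conjugate that carries paclitaxel and a cyclic dinucleotide. Dog RV, a spayed mixed-breed female, had a soft tissue sarcoma of the hock, dog CL, an intact Shih Tzu female, had a cranial and a caudal mammary carcinoma, and dog BM, a spayed Great Pyrenees female, had a carcinoma of the left caudal mammary gland. Each tumor gave a biopsy before treatment (n = 4). The early biopsies (n = 4) came 2 days after the second dose in RV and 1 week after it in CL and BM. The late biopsies (n = 5) came 2 weeks after the third dose in RV, at the injection site and at an adjacent site, and 1 month (CL) or 3 weeks (BM) after the second dose. All 4 sequenced tumors were treated, so the biopsy before treatment is the baseline, and treatment cannot be told apart from time, from repeated sampling, or from which part of a mass was taken. Within a tumor and time point there was 1 library, except for the late RV sites, and the 2 tumors of CL share a host.

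Total counts ranged from 16259854 to 27707651 before treatment, from 14211531 to 27611423 early, and from 11622444 to 29931125 late. Several libraries stood apart in what tissue they held. Histology of the early RV biopsy, on separately fixed tissue, described inflamed skin without definite tumor cells. It also described large vimentin-positive cells in bizarre mitosis, for which the paper proposes a mesenchymal origin. In the early RV library, labeled as mid mass, the summed epidermal markers were at 11.67 log2 CPM against 6.19 before and 5.59 to 5.80 late. CPM are counts scaled to a common library size. In the same library the fibroblast gene DCN was at 426 CPM against 7053 before, and 2.11% of its counts lay in genes below the filter on low counts, against 0.0747% to 0.359% in the other libraries. In the late BM library EPCAM, an epithelial adhesion protein, was at 11.5 CPM against 460 before. EPCAM was at 2.13 CPM in the RV sarcoma before treatment and between 49.4 and 460 CPM in the 3 mammary tumors. KRT8, of the same glandular epithelial marker list, was at 7.20 CPM in RV against 28.7 to 1976 CPM. KRT7 of that list went the other way, at 957 CPM in RV against 20.3 to 400 CPM. The sum of the list before treatment was 9.94 log2 CPM in RV and 8.35 to 12.28 in the mammary tumors, so it did not separate them. The Langerhans cell marker CD207 had no count in any library.

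TGM2 was higher in the early biopsy than before treatment in each of the 4 tumors, by 8.66-fold to 21.7-fold, and was near its starting level again in the late biopsies. In RV it went from 1.73 CPM (26 counts) before to 36.7 CPM (654 counts) early, and it was at 2.85 CPM at the injection site and 2.78 CPM at the adjacent site late. In the cranial CL tumor it was at 3.49 CPM before, 75.7 CPM early, and 2.01 CPM late. The caudal CL tumor had the lowest values, with 1.26 CPM before, 10.9 CPM early, and 1.36 CPM late. BM had the highest at every time point, with 19.6 CPM before, 189 CPM early, and 21.2 CPM late. The group means were 6.52 ± 8.78 CPM before (SD, n = 4), 78.0 ± 78.5 CPM early (SD, n = 4), and 6.04 ± 8.50 CPM late (SD, n = 5). The groups overlapped, because BM before treatment and late was above the early caudal CL biopsy. The order of the tumors, with BM highest and caudal CL lowest, was the same before and early.

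**Figure D1:**
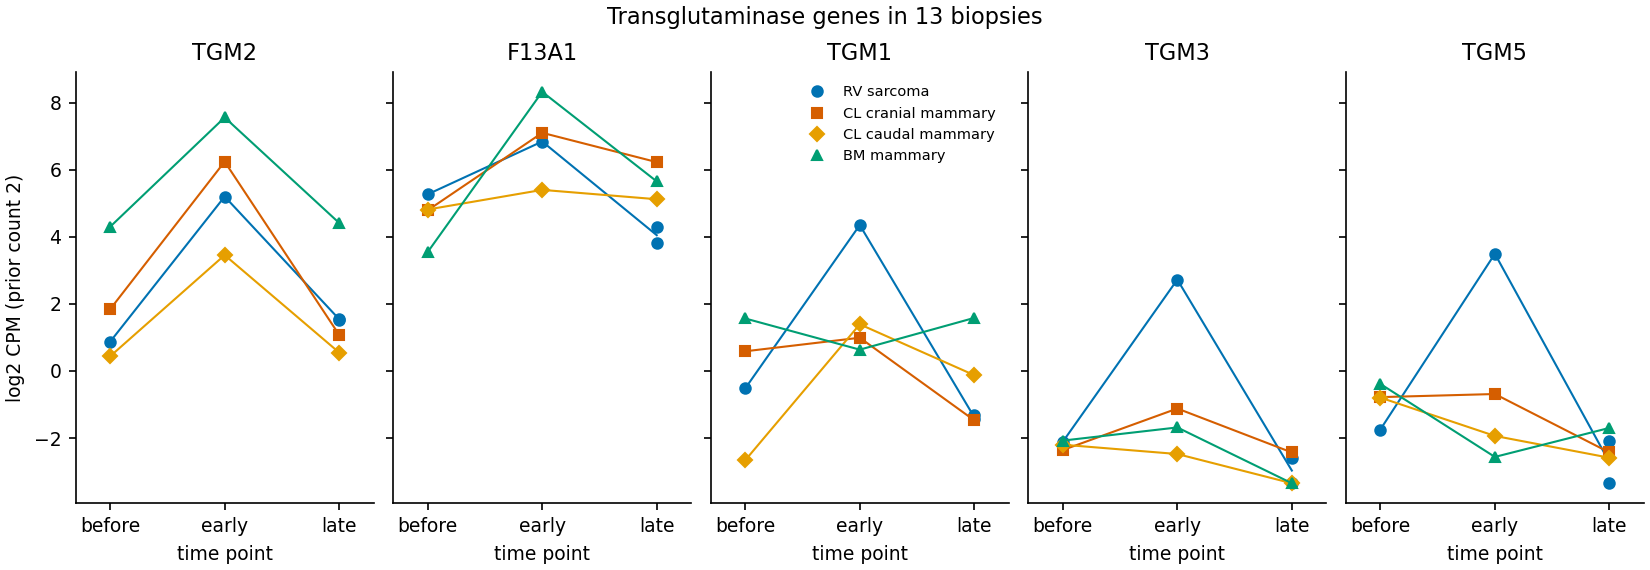
Level of each of the 5 genes in the 13 libraries, in log2 CPM with a prior count of 2 (y axis), at 3 time points (x axis); each symbol is a library, each color a tumor, and lines join a tumor's libraries, through the mean of the 2 late RV sites. TGM2 and F13A1 were higher early in all 4 tumors, while TGM3 and TGM5 were far above their other values in the early RV library alone.

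On the log2 scale with a prior count of 2, the early change of TGM2 was 4.33 in RV, 4.40 in cranial CL, 3.02 in caudal CL, and 3.26 in BM, a mean of 3.75 ± 0.72 (SD, n = 4 tumors). The fitted log2 fold change was 3.85 (SE 0.45), or 3.57 (SE 1.18) without the tumor as a block. Among the 20118 genes tested TGM2 ranked 81 by fitted change and 11 by mean change over the tumors. Because this contrast chose TGM2, these values describe the choice and are given without a test. By p-value the next genes were CD163, the macrophage receptor for haptoglobin-hemoglobin, with a fitted log2 fold change of 2.84 (SE 0.39), and VSIR, which encodes the immune checkpoint VISTA, with 2.38 (SE 0.34). These were the first genes outside the adjusted p threshold of 0.05, and both were higher in all 4 tumors. By fitted change the neighbors of TGM2 were LOC111090880 at 3.85 (SE 1.65) and NCR1, a receptor of natural killer cells, at 3.85 (SE 0.98). The larger SE of these goes with uneven changes, from 0.12 in caudal CL to 6.29 in RV for LOC111090880 and from 1.42 to 5.94 in the same tumors for NCR1.

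In edgeR's quasi-likelihood test with tumor and time group as factors, 1 of 20118 genes (0.00497%) passed an adjusted p of 0.05 early against before, the gene that this contrast chose, so nothing is read from that count. At an unadjusted p under 0.05 there were 2184 genes (10.9%), and DESeq2 called 956 (4.75%). Higher early levels in all 4 tumors were found for 2165 genes (10.8%), among them TGM2 and F13A1.

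Late against before, TGM2 differed by 0.67 in RV, −0.77 in cranial CL, 0.11 in caudal CL, and 0.11 in BM on the log2 scale, a mean of 0.03 ± 0.59 (SD, n = 4 tumors). The fitted difference was 0.11 (SE 0.40). Late against early it was lower in all 4 tumors, by a fitted −3.73 (SE 0.42). The 2 late RV sites could not be distinguished, with exact 95% Poisson intervals, which cover counting error only, of 2.05 to 3.85 CPM and 2.04 to 3.71 CPM. These comparisons share the before or early libraries with the contrast that chose TGM2 and are also given without a test. For background, 0 genes (0%) passed the adjusted threshold late against before and 805 (4%) had an unadjusted p under 0.05 in edgeR. DESeq2 called 7 (0.0348%). Late against early edgeR called 2 genes (0.00994%), which include TGM2, from which nothing is read since the early libraries chose it, and 5355 genes (26.6%) had an unadjusted p under 0.05. DESeq2 called 4809 (23.9%). A level lower late than early in all 4 tumors was found for 3508 genes (17.4%), and higher early with lower late in all 4 tumors for 1189 (5.91%). TGM2 and F13A1 were in both counts.

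F13A1 was also higher early than before in all 4 tumors, but unevenly, by 1.5-fold to 27.7-fold. It went from 38.4 to 115 CPM in RV, from 27.6 to 137 CPM in cranial CL, from 28.1 to 42.2 CPM in caudal CL, and from 11.6 to 321 CPM in BM. The tumor with the lowest level before treatment, BM, thus had the highest early. All 4 early libraries were above all 4 before libraries, which held for 545 genes (2.71%). Group means were 26.4 CPM (SD 11.1, n = 4) before treatment, 154 CPM (SD 118, n = 4) early, and 38.6 CPM (SD 24.7, n = 5) late. The early log2 changes of 1.57, 2.31, 0.59, and 4.78 averaged 2.31 ± 1.79 (SD, n = 4 tumors), with a fitted value of 2.21 (SE 0.67). The fitted value was 1.37 without BM, 1.62 without the BM library before treatment, and 2.85 without the RV library before treatment.

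Late F13A1 was at 19.5 CPM at the RV injection site and 13.9 CPM at the adjacent site. In the mammary tumors it was at 74.9 CPM in cranial CL, 34.7 CPM in caudal CL, and 50.2 CPM in BM. The RV values were below that tumor's level before treatment and the 3 mammary values above theirs, and late and before groups overlapped. In edgeR's test the fitted late against before difference was 0.33 (SE 0.60, adjusted p = 0.978). Late against early F13A1 was lower in 4 of 4 tumors, by 2.79, 0.87, 0.28, and 2.67 on the log2 scale in the order RV, cranial CL, caudal CL, and BM. The fitted difference, −1.89 (SE 0.60), did not pass edgeR's threshold (adjusted p = 0.0898), and with DESeq2 it did (−1.91, adjusted p = 0.0158). F13B, the carrier subunit of factor XIII made in liver, had 86 counts, 68.8% of all its counts, in the early RV library and did not pass the filter.

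**Figure D2:**
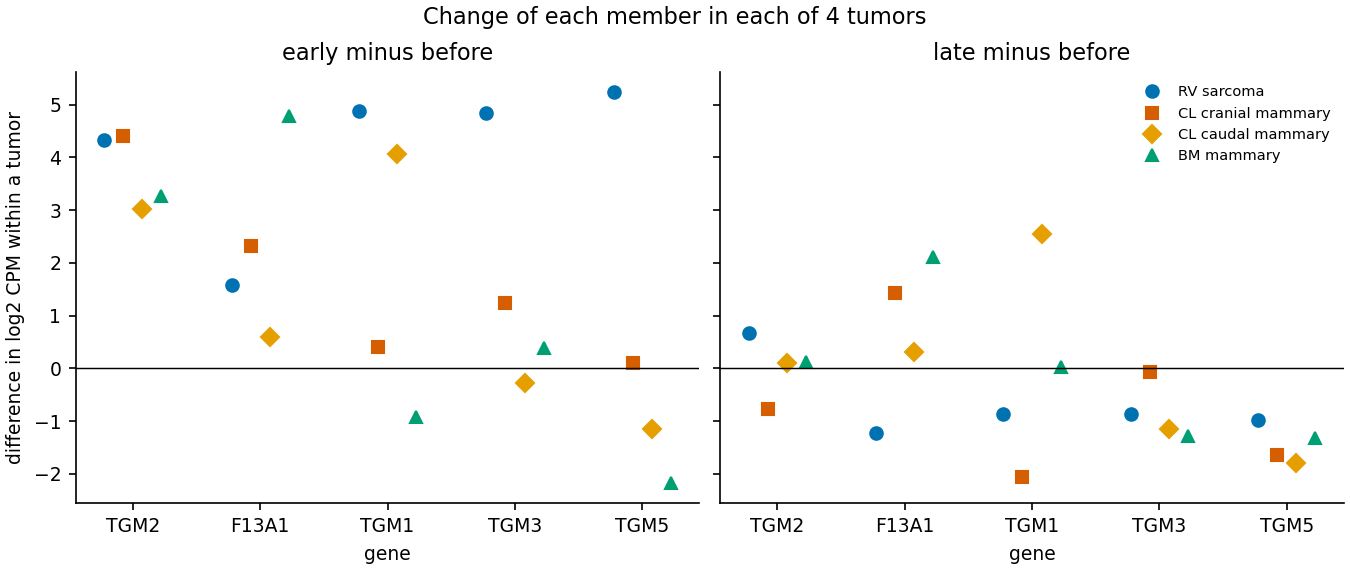
Difference in log2 CPM (prior count 2) within each tumor (y axis) for the 5 genes (x axis), early minus before on the left and late minus before on the right; each symbol is a tumor and the line marks no difference. The early changes of TGM2 lie between 3.02 and 4.40, whereas those of TGM5 reach from −2.18 to 5.24.

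TGM1, the keratinocyte transglutaminase that builds the cornified envelope at the cell membrane, did not share this pattern across tumors. It went from 0.600 CPM before to 20.3 CPM early in RV, and from 0.0598 CPM (1 count) to 2.53 CPM (62 counts) in caudal CL. In cranial CL it was at 1.40 CPM before and 1.89 CPM early, and in BM at 2.86 and 1.46 CPM. The exact 95% intervals of the early to before ratios, here and for TGM3 and TGM5, cover counting error only, not the spread between biopsies. The ratio was 33.9 (17.7 to 74.7) in RV and 42.2 (7.30 to 1694) in caudal CL, where the single count before treatment sets the width. In cranial CL the ratio was 1.35 (0.830 to 2.22), and in BM it was 0.509 (0.345 to 0.737). So TGM1 was higher early in 3 of 4 tumors, and its fitted early change of 2.68 (SE 1.35) was 0.86 when the early RV library was left out.

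Late TGM1 was at 0.271 and 0.302 CPM in RV, 0.262 CPM in cranial CL, 0.819 CPM in caudal CL, and 2.90 CPM in BM. The late range lay within the range before treatment, 0.0598 to 2.86 CPM, except for BM. The fitted difference late against before was −0.41 (SE 1.18, adjusted p = 0.989 in edgeR). Late against early it was −3.09 (SE 1.24, adjusted p = 0.144 in edgeR), and −1.26 without the early RV library.

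TGM3, which acts on trichohyalin and other proteins of the hair follicle and upper epidermis, was near the limit of detection except in a single library. It had 116 of its 146 counts (79.5%) in the early RV library. In RV it had 2 counts before and 1 and 0 counts late. In the mammary tumors it had between 2 and 5 counts before, between 2 and 9 early, and 0 or 1 late. In caudal CL and BM, where it had 0 counts late, 3 counts would have been 0.205 and 0.126 CPM, so levels under these were not detectable at this depth. The early to before ratio in RV was 48.9 (exact 95% interval of counting error 13.2 to 408). In the other tumors every interval included 1, with ratios of 3.74 in cranial CL, 0.681 in caudal CL, and 1.53 in BM. TGM3 did not pass the filter on low counts and has no value in edgeR's fit over the 20118 genes.

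TGM5, which takes part in adhesion between the outer layers of the epidermis, had 199 of its 272 counts (73.2%) in the early RV library. Its other counts in RV were 3 before and 2 and 0 late. In cranial CL it had 10 counts before, 13 early, and 1 late, in caudal CL 8, 4, and 1, and in BM 24, 2, and 5. The early to before ratio was 55.9 (exact 95% interval of counting error 18.8 to 273) in RV and 0.106 (0.0122 to 0.429) in BM. The directions between these single libraries were thus opposite. The fitted early change of 1.15 (SE 1.65) became −1.20 without the early RV library. Late TGM5 was below its level before treatment in 4 of 4 tumors, as were 1617 genes tested (8.04%). The fitted difference late against before was −2.60 (SE 1.39, adjusted p = 0.973 in edgeR). Late against early it was −3.75 (SE 1.60, adjusted p = 0.164 in edgeR), and −0.72 without the early RV library.

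A large share of counts in the early RV library was not limited to these members. Of 21621 genes with at least 100 counts in all, 12% had as large a share of their counts there as TGM1 (48.5%), 2.13% as large a share as TGM5, and 0.722% as large a share as TGM3. The highest shares of TGM2 and F13A1 were in the early BM library, at 55.5% and 43.8% of their counts, and 0.467% and 1.07% of genes had as large a share there. Of the other genes with the transglutaminase fold, TGM6 and TGM7 had under 100 counts in all and were outside this comparison of shares. TGM6 had 26 of its 34 counts in the early RV library and TGM7 had 18 of 48. EPB42, a member without crosslinking activity that belongs to the red cell membrane skeleton, was at 4.94 CPM there and between 0.355 and 2.01 CPM elsewhere. Its fitted early change was 0.47 (SE 0.83), with an adjusted p of 0.823 in edgeR.

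Marker genes of macrophages, endothelium, and epidermis were set beside these members, tumor by tumor. Bulk RNA gives the sum over all cells of a biopsy, so a larger number of cells of a type and more RNA per cell cannot be told apart. The summed macrophage markers (13 of 14 listed genes in the table, F13A1 not among them) ranged from 8.35 to 9.80 log2 CPM before, from 10.37 to 11.92 early, and from 8.87 to 10.64 late. Their early changes were 1.60 in RV, 1.94 in cranial CL, 0.57 in caudal CL, and 3.57 in BM. The F13A1 changes exceeded these by −0.02, 0.38, 0.02, and 1.21, so F13A1 followed the macrophage sum within 0.38 in 3 tumors and went beyond it in BM. Single genes of the list did not all move with the sum. In caudal CL AIF1 went from 96.8 CPM before to 37.4 CPM early, while CD163 went from 62.0 to 226 CPM and CD68 from 3.17 to 16.9 CPM. Late against early, F13A1 less the macrophage sum was −1.19 in RV and −1.40 in BM, and within 0.47 of no change in both CL tumors. In BM CD68 moved against the sum, from 22.9 CPM early to 120 CPM late. There CD163 went from 325 to 60.1 CPM and AIF1 from 93.2 to 33.8 CPM.

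TGM2 went beyond the macrophage sum early by 2.73 in RV, 2.47 in cranial CL, and 2.45 in caudal CL, and differed from it by −0.31 in BM. The summed endothelial markers (10 of 10 in the table) ranged from 5.56 to 7.50 log2 CPM before, from 7.04 to 10.83 early, and from 5.89 to 8.26 late. The early change of TGM2 exceeded theirs by 3.50 in RV, 2.80 in cranial CL, and 1.53 in caudal CL, and differed by −0.07 in BM. Early, BM was thus the tumor where TGM2 and these sums differed by like amounts, and in the other 3 tumors TGM2 differed by more than either. Late against early, TGM2 less the macrophage sum was −2.05 in RV, −3.82 in cranial CL, −2.64 in caudal CL, and −1.87 in BM, and TGM2 less the endothelial sum was −3.06, −3.10, −1.75, and −0.57. Early, TGM2 less the fibroblast sum differed by 7.67, 5.20, and 3.27 in RV, cranial CL, and caudal CL and by −1.20 in BM. Less the epidermal sum it differed by −1.15 in RV, 3.66 in cranial CL, 0.004 in caudal CL, and 4.58 in BM. In that order the values were −1.08, 3.05, 1.46, and 2.61 for hair follicle markers. For neutrophil markers they were −2.76, 0.55, 7.25, and 3.02. In RV these 3 sums thus changed by more than TGM2. TGM2 exceeded the glandular, smooth muscle, platelet, and dermal dendritic and mast cell sums in 4 of 4 tumors. The part of these cell types in the levels of TGM2 and F13A1 was not tested.

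**Figure D3:**
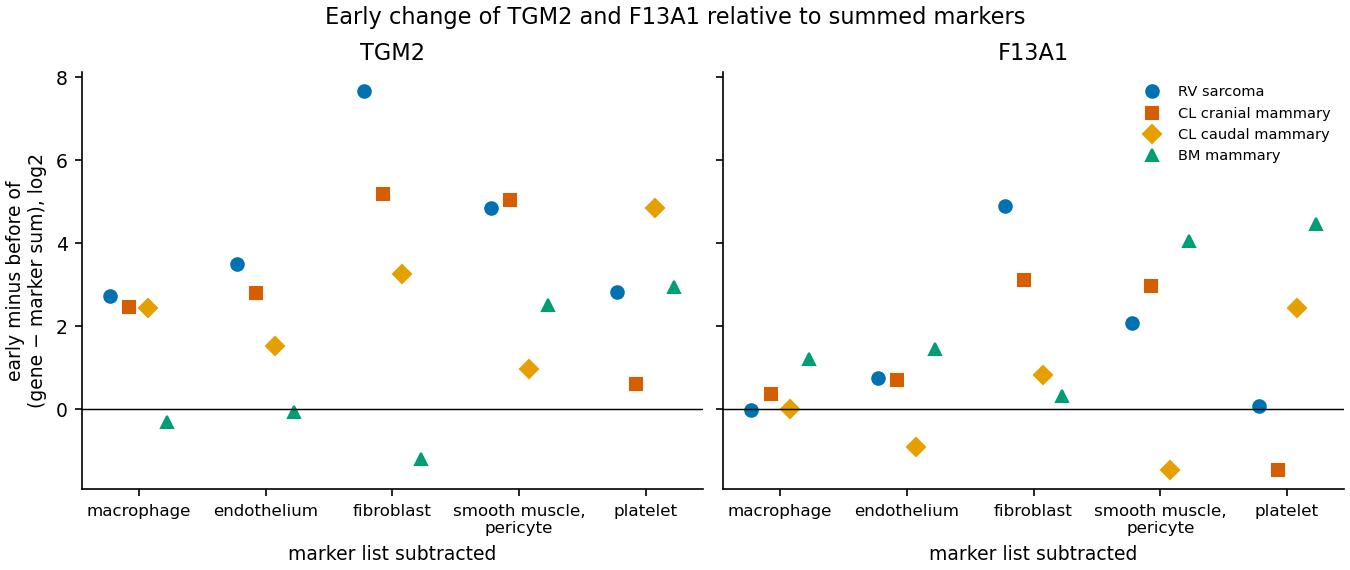
Early minus before change of TGM2 (left) and F13A1 (right) after subtracting the change of a summed marker list, on the log2 scale (y axis), for 5 marker lists (x axis); each symbol is a tumor. F13A1 lies between −0.02 and 1.21 against macrophage markers, and TGM2 lies between 2.45 and 2.73 in 3 tumors and at −0.31 in BM.

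The summed epidermal markers (12 of 14 in the table) were compared with TGM1. That sum changed early by 5.48 in RV, 0.74 in cranial CL, 3.01 in caudal CL, and −1.31 in BM, and TGM1 differed from it by −0.61, −0.34, 1.04, and 0.38. The list includes KRT5 and KRT14, keratins that basal and myoepithelial cells of the mammary gland also make, and KRT5 in caudal CL went from 209 to 1938 CPM. In that tumor KRT1 and KRT10, keratins of differentiated epidermis, were at 1.62 and 28.7 CPM before and 0.815 and 19.1 CPM early, so they did not share the higher value of TGM1. TGM3 and TGM5 in caudal CL differed early from before by −0.28 and −1.14 on the log2 scale. KRT1 was at 427 CPM in the early RV library, between 0.724 and 15.3 CPM in 9 libraries, and at 0 in the early and late BM and the late caudal CL libraries. Late against early in BM the epidermal sum differed by −3.63 and TGM1 by 0.95, so the 2 did not move together there. Hair follicle markers were at 6.54 log2 CPM in the early RV library against −1.48 to 4.0 in the other 12. The part of skin in the levels of TGM1, TGM3, and TGM5 was not tested.

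**Figure D4:**
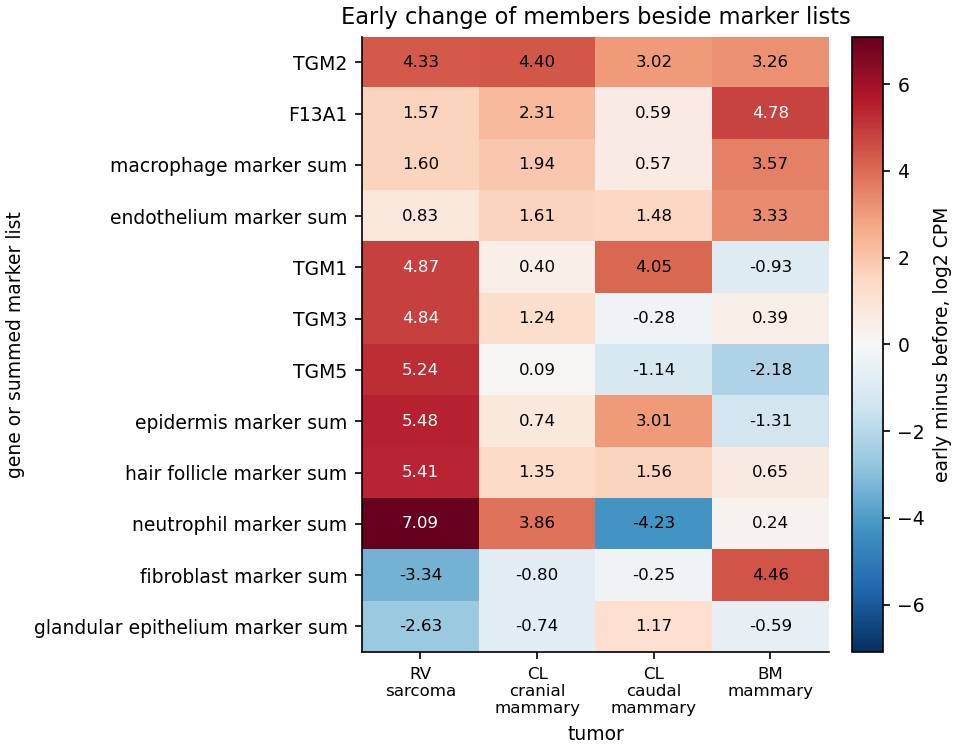
Early minus before change in log2 CPM for the 5 genes and for the summed CPM of 7 marker lists (rows) in the 4 tumors (columns); color and number give the change, red for higher early. The rows of TGM1, TGM3, TGM5, and the epidermal, hair follicle, and neutrophil sums share their highest value in RV. Those of F13A1 and the macrophage, endothelial, and fibroblast sums share their highest value in BM.

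The summed neutrophil markers did not follow TGM2. Their sum changed early by 7.09 in RV and 3.86 in cranial CL, by −4.23 in caudal CL, and by 0.24 in BM, whereas TGM2 was higher in all 4. CSF3R, a neutrophil receptor of that list, was higher early in RV and cranial CL, as the sum was. It moved against the sum in caudal CL, from 2.93 to 3.91 CPM, and in BM, from 11.8 to 7.24 CPM. Platelet markers, whose cells also hold F13A1 product, changed by 1.49, 3.78, −1.85, and 0.31, and F13A1 less this sum ranged from −1.47 in cranial CL to 4.47 in BM. The platelet genes PPBP and ITGA2B of that list were both higher early in RV and cranial CL. In caudal CL PPBP went from 11.5 to 0.0407 CPM, as the sum did, but ITGA2B from 0.718 to 3.26 CPM. In BM PPBP went from 14.70 to 19.99 CPM and ITGA2B from 6.14 to 4.69 CPM. PF4, also listed, had no value. The direction for platelets in caudal CL and BM thus depended on the gene.

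By pattern over the 13 libraries, the genes most like TGM2 in Pearson r of log2 CPM were RASA4B (0.95), FCER2, a low-affinity IgE receptor of B cells (0.95), LGALS9, which encodes galectin-9 (0.95), VWF, the von Willebrand factor of endothelium (0.95), and PDCD1, the T cell checkpoint PD-1 (0.95). The genes most like F13A1 were TNFAIP8L2 (0.94), the blood and endothelial transcription cofactor LMO2 (0.91), LY86, which encodes MD-1 of myeloid and B cells (0.91), LOC480601 (0.90), and the transcription factor EBF3 (0.90). For TGM1 these were CIT (0.96), LOC119877475 (0.94), XPO6 (0.93), LOC111098592 (0.93), and LOC100685782 (0.93). For TGM5 they were DNAH5 (0.96), TPRG1 (0.95), LOC111096644 (0.95), LOC111091919 (0.94), and LOC106557598 (0.94). With each tumor's mean subtracted, the 5 genes most like TGM2 were others. These were PARP9 (0.99), ADGRE1 (0.97), PDE2A (0.97), SH2D6 (0.97), and SIRPB2 (0.97). PARP9 had an r of 0.70 with TGM2 when the means were not subtracted. The 13 libraries share 3 hosts and 4 masses, and a single library can set such an r.

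Among the members themselves r was 0.66 for TGM2 with F13A1, 0.68 for TGM2 with TGM1, and 0.33 for TGM2 with TGM5. With each tumor's mean subtracted these were 0.71, 0.65, and 0.45. None of these members was among the 5 closest genes of another. By likeness to TGM2, F13A1 ranked 1711 of 20117 genes and TGM1 ranked 1531. In the other direction TGM2 ranked 564 by likeness to F13A1 and 1557 by likeness to TGM1.

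The cornified envelope list, the substrates and helpers of the epidermal members, had 17 of 32 listed genes tested, and 0 passed the adjusted threshold of edgeR in any of the 3 comparisons. Early against before its median fitted log2 change was 1.83, with 16 of 17 higher, 3 of them at an unadjusted p under 0.05. The median over all genes tested was 0.25, with 60.3% of them higher and 10.9% at an unadjusted p under 0.05 in either direction. By tumor the median of the list was 5.30 in RV, 1.59 in cranial CL, 1.43 in caudal CL, and −0.17 in BM. Late against early the median was −3.37 against −0.35 for all genes, and 12 of 17 were lower at an unadjusted p under 0.05, where 26.6% of all genes were past it in either direction. Late against before 1 of 17 was lower at that level, where 4% of all genes were past it. DESeq2 called 2 of 17 higher early, CASP14, a caspase of keratinocyte differentiation, and LORICRIN, a main protein of the envelope, 12 lower late than early, and 0 late against before, where it called 4.75%, 23.9%, and 0.0348% of all genes. The 3 members with the highest mean level were S100A10 (fitted early change −0.19, SE 0.65) and S100A11 (0.11, SE 0.50), calcium-binding proteins made by many cell types, and sciellin, SCEL (1.36, SE 0.57). None of these 3 passed, with adjusted p-values from edgeR of 0.911, 0.935, and 0.439.

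The fibrin and factor XIII list, with 12 of 22 genes tested, also had 0 calls by edgeR in each comparison. At an unadjusted p under 0.05 it had 0 late against before and 3 late against early, against 4% and 26.6% of all genes. Its early median was 1.63, with 11 of 12 higher and 4 at an unadjusted p under 0.05, against 60.3% and 10.9% of all genes tested, and its medians by tumor were 2.18, 0.89, 0.67, and 0.66 in the order RV, cranial CL, caudal CL, and BM. THBS1, which encodes thrombospondin-1, averaged 463 CPM (SD 63.3, n = 4) before treatment and 697 CPM (SD 195, n = 4) in the early biopsies, higher in 4 of 4 tumors, with an adjusted p of 0.600 in edgeR. PLAT, the tissue plasminogen activator, averaged 29.4 CPM (SD 20.7, n = 4) before treatment and 78.5 CPM (SD 75.4, n = 4) in the early biopsies, higher in 3 of 4 tumors (adjusted p = 0.430 in edgeR). F3, the tissue factor that starts clotting, had a fitted early change of −0.10 (SE 0.92), with changes from −1.87 in BM to 3.10 in RV. DESeq2 called 2 of 12 higher early and 3 lower late than early, where it called 4.75% and 23.9% of all genes. PLAU, the urokinase that activates plasminogen, was in both calls. The fibrinogen genes FGA, FGB, and FGG did not pass the filter.

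Genes whose products bind TGM2 outside cells or at the cell surface had smaller fitted values. All 26 were tested and 0 passed in any comparison in edgeR. At an unadjusted p under 0.05 there was 1 late against before and 4 late against early, against 4% and 26.6% of all genes. The early median was 0.39, with 20 of 26 higher and 3 at an unadjusted p under 0.05 (60.3% and 10.9% of all genes), and by tumor it was −0.75 in RV, 0.36 in cranial CL, 0.58 in caudal CL, and 1.33 in BM. VIM, the intermediate filament vimentin, ANXA1, the phospholipid-binding protein annexin A1, and COL3A1, a fibrillar collagen, had fitted early changes of 0.09 (SE 0.78), −0.58 (SE 0.53), and −0.15 (SE 0.96). DESeq2 called 1 gene higher early, ITGA5, the fibronectin receptor subunit, and late against early 1 higher and 3 lower. It called 4.75% and 23.9% of all genes in these comparisons. COL3A1 differed early from before by 4.65 in BM and by −1.49 in RV. Late against before the list median was 0.38, and by tumor it was highest in BM at 2.05.

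The retinoid list had 21 of 23 genes tested and 0 calls by edgeR in each comparison. At an unadjusted p under 0.05 it had 1 late against before and 4 late against early, against 4% and 26.6% of all genes. DESeq2 called 0 early and 3 lower late than early, against 4.75% and 23.9% of all genes. The 3 include the receptors RARA and RXRA. The early median of the list was 0.31, near the 0.25 of all genes. In it 15 of 21 were higher and 1 was at an unadjusted p under 0.05, against 60.3% and 10.9% of all genes. By tumor the median was −1.65 in RV, 0.22 in cranial CL, 0.23 in caudal CL, and 1.0 in BM, while TGM2 was higher early by at least 3.02 in each. RBP4, a plasma retinol carrier, had an early change of −5.08 in RV and 4.74 in BM, and CRABP2, a cellular retinoic acid carrier, −3.53 in RV and 1.92 in caudal CL. RARRES1, a gene named for its response to a retinoid, had a fitted early change of −0.52 (SE 0.53), and late against early it was higher in 4 of 4 tumors by 1.29 (SE 0.50, adjusted p = 0.138 in edgeR).

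The list for the engulfment of dying cells, a process in which TGM2 takes part on macrophages, had 19 of 20 genes tested and 0 calls by edgeR in each comparison. Its early median was 0.96, with 16 of 19 higher and 7 at an unadjusted p under 0.05, against 60.3% and 10.9% of all genes tested, and its medians by tumor were alike at 1.23, 1.38, 0.98, and 1.37 in the order RV, cranial CL, caudal CL, and BM. LRP1, an uptake receptor and a partner of TGM2, averaged 76.2 CPM (SD 37.6, n = 4) before treatment and 214 CPM (SD 62.9, n = 4) in the early biopsies, higher in 4 of 4 tumors, with an adjusted p of 0.430 in edgeR. MFGE8, which bridges dying cells to integrins, had a fitted early change of 0.30 (SE 0.52), and the cholesterol exporter ABCA1 had −0.02 (SE 0.47). DESeq2 called 3 genes higher early, against 4.75% of all genes called in either direction, the scavenger receptors STAB1 and STAB2 and the sterol-sensing receptor NR1H3. Late against early the median was −0.80, with 4 of 19 higher, 4 lower at an unadjusted p under 0.05, and 4 called lower by DESeq2, where 26.6% and 23.9% of all genes were past these thresholds in either direction. Late against before no gene of this list reached an unadjusted p under 0.05.

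The coordinates given by the RefSeq annotation of UU_Cfam_GSD_1.0, the assembly also called CanFam4, place TGM2 on chromosome 24 from 27198294 to 27229594. TGM3 and TGM6 lie beside each other on the same chromosome, from 19206876 to 19247013 and from 19148694 to 19166354. TGM5, TGM7, and EPB42 form a cluster on chromosome 30 between 10359057 and 10456358. TGM1 is on chromosome 8 from 4354922 to 4366945 and F13A1 on chromosome 35 from 7481872 to 7644350. In the cluster on chromosome 30, TGM5, TGM7, and EPB42 all had their highest count in the early RV library. This was not particular to the cluster, since TGM1, TGM3, TGM6, and F13B on other chromosomes also had theirs there. That library had a count for 32296 genes, against 22319 to 30832 in the other libraries. The share of all genes with their highest count there was not determined.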

How the data were processed

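RNA from 13 biopsies was sequenced as strand-specific libraries, which the authors aligned to CanFam4.0 with Strand NGS. They deposited raw read counts per gene symbol, without normalization. How reads were assigned to genes, by which annotation release, and what was done with multi-mapping reads is not given in the sources used here, so reads shared between family members could be split differently. Library names in the labels start with SGF for dog BM and RN for the other dogs, so this difference cannot be told apart from the dog.

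Low counts were removed by filterByExpr with a minimum count of 10, grouped by time. TMM normalization, glmQLFit with robust estimation, and glmQLFTest were run in edgeR 4.0.16 (R 4.3.3) with tumor and time group as factors (common coefficient of variation 0.672, 7 residual degrees of freedom). P-values were two-sided and adjusted by the Benjamini-Hochberg method over 20118 genes, with a threshold of 0.05. CPM used TMM library sizes, and log2 CPM a prior count of 2. Marker sums are log2 of summed CPM. Of 43427 symbols, 42574 matched RefSeq, which gave the coordinates.

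Libraries of a tumor come from the same mass, which is where the pairing comes from. Deviations from the group means correlated at a mean r of 0.23 (−0.05 to 0.48) between before and early libraries of a tumor, 0.59 between before and late, and 0.19 between early and late, against −0.07, −0.20, and −0.07 between different tumors. No library was a copy of another (the smallest chi-square per degree of freedom over 78 pairs was 44.5). Single libraries stand for each tumor and time, so p-values measure the spread between these biopsies.

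The members and gene lists were chosen with earlier results of these data known, and the lists are not independent evidence. The genes named were the 5 members, the other transglutaminase fold genes, the 3 genes of each list with the highest mean level, the 5 genes most like each member tested, and the neighbors of TGM2 by p-value and fold change. For TGM2 the closest genes with each tumor's mean subtracted were also named. Others (F13B, DCN, EPCAM, CD207, KRT1, KRT5, KRT7, KRT8, KRT10, KRT14, CD68, AIF1, CSF3R, S100A8, S100A9, PPBP, ITGA2B, PF4) were named after their values were seen or as markers. So were the list genes called by DESeq2 and genes that did not pass the filter. TGM4 was not analysed here, and some list genes are not reported here singly. The alternatives tried were DESeq2 1.42.0, its size factors in edgeR, a fit without the filter, fits with no block or with the dog in place of the tumor, sums over the late RV sites or over the CL tumors, fits to the compared time points alone, a prior count of 0.5, and leaving out each library or tumor. The models were tested on simulated data. Tables and figures were made with pandas 2.3.3, scipy 1.17.1, numpy 2.4.6, and matplotlib 3.10.9 in Python 3.11.15.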

Additional observations from a re-analysis of the deposited data

Results flagged for a closer look

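The late BM library had TGM2 at 4.41 log2 CPM, far from the other 4 late libraries, which lay between 0.55 and 1.56; BM was also the highest tumor before treatment and early. The caudal CL library before treatment had summed neutrophil markers of 11.05 log2 CPM, whereas the remaining 3 pretreatment libraries lay between 5.23 and 5.80, so that the early change of this sum in caudal CL, −4.23, starts from a high level. In that library S100A8 was at 1544 CPM and S100A9 at 491 CPM. CSF3R, a neutrophil receptor of the same list, was not high there, at 2.93 CPM against 2.61 to 11.8 CPM in the other pretreatment libraries. TGM2 in the caudal CL library before treatment was at 1.26 CPM, the lowest of the 13. Of 45 groups of libraries examined in this way these 2 stood apart, and chance gives about 1 in 20, or 2.25. F13A1 late against before was −1.22 in RV and between 0.31 and 2.11 in the 3 mammary tumors on the log2 scale. This difference between tumor types was not tested, and tumor type cannot be told apart from the dog or from the number of doses.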

How the results depend on the processing

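The counts of genes called depended on the settings. Early against before, where edgeR called 1 gene, 0 were called with DESeq2's size factors, with no replicate block, with the dog as block, with the CL tumors or the late RV sites summed, or with only the 2 time points compared, 17 with no filter, and 956 with DESeq2. Leaving out a library or a tumor gave 0 to 12, the 12 without the early caudal CL library. Late against before DESeq2 called 7 and leaving out a library or tumor 0. Late against early, where edgeR called 2 genes, 0 were called with no replicate block, with the dog as block, with either summing, or with only the 2 time points, 1081 with no filter, and 4809 with DESeq2, and leaving out gave 0 to 2000 (809 without the RV library before treatment, 2000 without the early BM library, and 28 without the late BM library). The block changed no other call. The cause was not tested.

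The fitted early change of TGM2 ranged from 3.41 (without the early cranial CL library) to 4.05 (without caudal CL) over 25 alternatives. Its place by p-value, which chose it, was less stable. It ranked first in 20 of the 25 and was past the adjusted threshold in 4. Its rank was 406 with no replicate block, 7 without BM, and 4 without the early BM library. It was 2 with the dog as block and 2 without the early caudal CL library. DESeq2 put the late against early differences of TGM1 (−3.15, adjusted p = 0.0156), TGM5 (−3.89, adjusted p = 0.0217), and F13A1 (−1.91, adjusted p = 0.0158) past the threshold. In edgeR no alternative did so, with adjusted p-values of at least 0.0587 (TGM1), 0.0650 (TGM5), and 0.0595 (F13A1) when a library was left out. Late against before, the direction turned when libraries or tumors were left out for TGM1 (−1.30 to 0.42, turning without cranial CL, at 0.37, or its library before treatment) and for F13A1 (−0.13 without the BM library before treatment to 1.09 without RV, and −0.0015 without the late cranial CL library, −0.03 without cranial CL, and −0.01 without BM), with no call in any. The late against before value of TGM2, given without a test, also turned, to −0.07 without the RV library before treatment, −0.02 without the early cranial CL library, −0.10 without RV, and −0.11 with no replicate block. TGM5 had no fitted value when cranial CL was left out, and had one without each of the other 3 tumors. TGM3 had a fitted value only with no filter, −4.95 (SE 1.40, adjusted p = 0.0528 in edgeR) late against early. At counts this low the prior count set the size of a change, so that a prior count of 0.5 moved the late against before change of TGM3 in BM from −1.27 to −2.74.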
